A study of Homo sapiens with 15 samples.

Results

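Probes that the array design names only by an Ensembl transcript identifier (beginning with ENST) were followed in PE/CA-PJ41 cells, an immortalised human oral squamous carcinoma line. Of 42405 non-control probes on the array, 3036 carried such a name and stood for 2926 transcripts. A probe was tested if the scanner software called its green signal well above background on every array of either group, which kept 687 of these probes, for 679 transcripts. The control group, NCE, carried the empty transfection vector according to the labels, although the study's text also describes NCE cells as not transfected. The CYGB+ group was stably transfected with pCMV6-Neo holding the human cytoglobin cDNA and selected in G418; it came from 1 clone, so an effect of cytoglobin cannot be told apart from a property of that clone. Both groups were grown untreated in supplemented medium for 24 h before RNA extraction, and cells were extracted on 3 separate occasions. Each NCE biological replicate was hybridised to 3 arrays and each CYGB+ replicate to 2, giving 9 and 6 arrays. The labels give cyanine 3 (the green channel) for all 15 arrays, whereas the study's methods give cyanine 5 for the control RNA; green values were used throughout, so the direction of every difference rests on the labels.

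Ensembl annotates transcripts from genome evidence, and its set holds alternative isoforms, pseudogene transcripts and non-coding RNAs beside protein-coding messages. A microarray probe measures whatever RNA anneals to it, so a probe designed on an alternative transcript may also bind other transcripts of the same locus. Cytoglobin is a haem-containing globin linked to oxygen and redox chemistry, and the comparison asked which RNAs differ in level when its cDNA is introduced. The scanner files gave the 3036 probes neither gene name, sequence nor genomic position, and none of them matched the RefSeq gene table used here. Gene identities, exons, functions and sequences are therefore not given for these transcripts, and few identifiers are printed. All levels below are log2 green signals after quantile normalisation, and levels of different probes are not set against each other.

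Several properties of the arrays bear on every result. Slide 1 held 8 NCE arrays, while slide 2 held the remaining NCE array and all 6 CYGB+ arrays, so group and slide are almost the same split. Over the 687 tested probes, the correlation between array repeats of the same biological replicate, computed on deviations from each probe's mean, ranged from -0.13 to 0.78. Across all probes, 4 arrays had a median correlation below 0.15 with the other arrays of their own group. They were the third array of NCE replicate 1, which is the NCE array on slide 2, the second array of NCE replicate 3, the first array of CYGB+ replicate 1 and the second array of CYGB+ replicate 3. Over the 687 probes these 4 arrays correlated with each other at 0.16 to 0.39 in all 6 pairs, although they came from both groups and both slides. Scatter between array repeats was large in general, with a median SD among repeats of a biological replicate of 0.34. The median SD among biological replicate means was 0.29, and the first exceeded the second for 466 of 687 probes. The first SD is of single arrays and the second of means over 3 or 2 arrays. That count therefore does not set array scatter above biological scatter. Between 48% and 56.8% of all probes were well above background on an array.

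**Figure D1:**
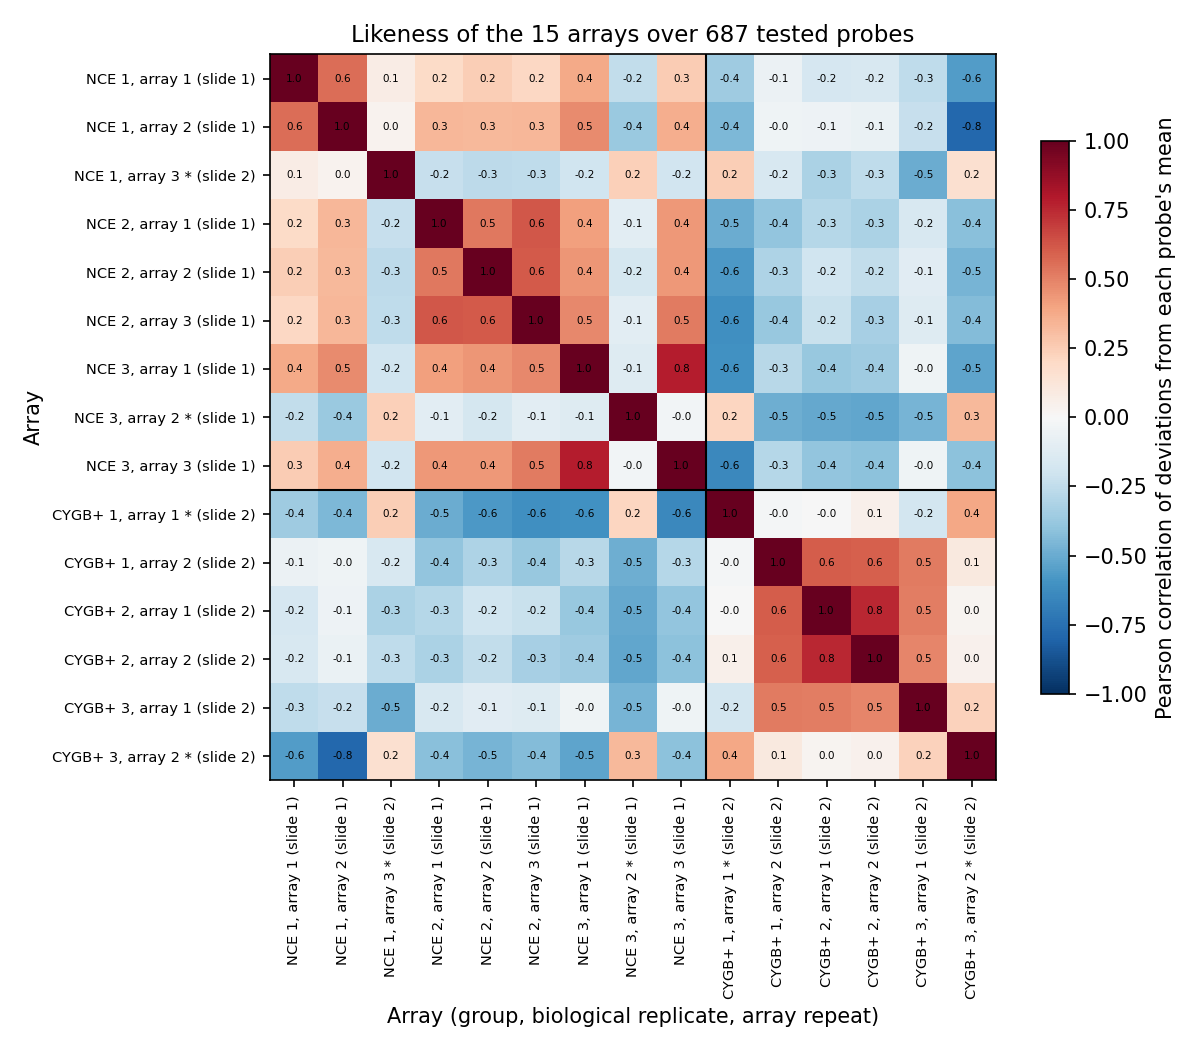
Pearson correlation between the 15 arrays over the 687 tested probes, after subtraction of each probe's mean, with arrays ordered by group, biological replicate and array repeat and asterisks on the 4 arrays that stood apart. NCE replicate 2 forms an even block of 3 arrays, whereas the second array of NCE replicate 3 and the first array of CYGB+ replicate 1 do not resemble their own repeats, with values between -0.13 and -0.02.

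The cytoglobin probe did not separate the groups. CYGB (NM_134268) measured 12.85, 13.16 and 12.96 in NCE replicates 1 to 3 and 12.37, 13.42 and 13.01 in CYGB+ replicates 1 to 3, and was well above background on all 15 arrays. The 2 ranges overlapped, and the difference was -0.05 (95% interval -0.67 to 0.56; limma with Benjamini-Hochberg adjustment, adjusted p = 0.92); the sign turned with 75th percentile scaling (0.11) and in the series matrix (0.05). The files do not say whether this probe lies within the transfected cDNA, so it does not check the group labels, and CYGB+ below means the arrays labelled so. The study describes the parent line as not expressing cytoglobin, and reports its expression in the transfected clones by qPCR and in-cell ELISA. The NCE signal of this probe (mean 12.99, well above background on all 9 NCE arrays) is at odds with that description. The reason was not tested. All 11 squamous epithelial markers, among them the keratin KRT5 and the transcription factor TP63, were well above background on every array. Of the other markers, 4 of 7 fibroblast, 2 of 4 leukocyte (LYZ had no probe) and 2 of 4 endothelial markers were well above background on no array. The leukocyte marker CD68 and the fibroblast marker COL1A2 were well above background on every array. The fibroblast marker COL1A1 was so on 6 NCE and 6 CYGB+ arrays, and the endothelial marker CDH5 on 6 and 5. The collagen chain COL1A2 was the only one of these other markers past the test: it was lower in CYGB+ (log2 difference -2.53, adjusted p = 0.0011), and the summed fibroblast list ranged from 8.67 to 8.96 in NCE and from 7.001 to 7.45 in CYGB+. COL1A2 carried that sum, since COL1A1, the only other tested fibroblast marker, had a difference of 0.23 (adjusted p = 0.73). Of the 11 squamous markers 1, the integrin subunit ITGB4, passed the test and was lower in CYGB+ (-0.80, adjusted p = 0.049); others had differences of either sign, such as 0.66 for KRT14 and -0.57 for EPCAM, and the summed list overlapped between groups (17.41 to 17.55 in NCE and 17.22 to 17.60 in CYGB+). The part of these shifts in the results below was not tested.

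Most of the Ensembl-named probes were well above background on few of the arrays or none. No array showed 1441 of the 3036 probes (47.5%) well above background, against 32.9% of all non-control probes. A single array did so for a further 388. At the other end, 559 probes (18.4%) were well above background on all 15 arrays, against 41.2% of all probes. The share that passed into the test was 22.6%, lower than the 46.2% of all probes and the 61% of probes named by a curated RefSeq messenger RNA accession (NM). It was closest to the 25.8% of the 8263 lincRNA probes on the array, and below the 34% of the 1920 probes named by a RefSeq non-coding accession (NR). These shares are descriptions and were not tested against each other. Just inside the limit, all 60 probes seen on 14 arrays were tested, since the missing array always left the other group complete; among the 47 probes seen on 13 arrays, 24 were tested and 23 were not.

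**Figure D2:**
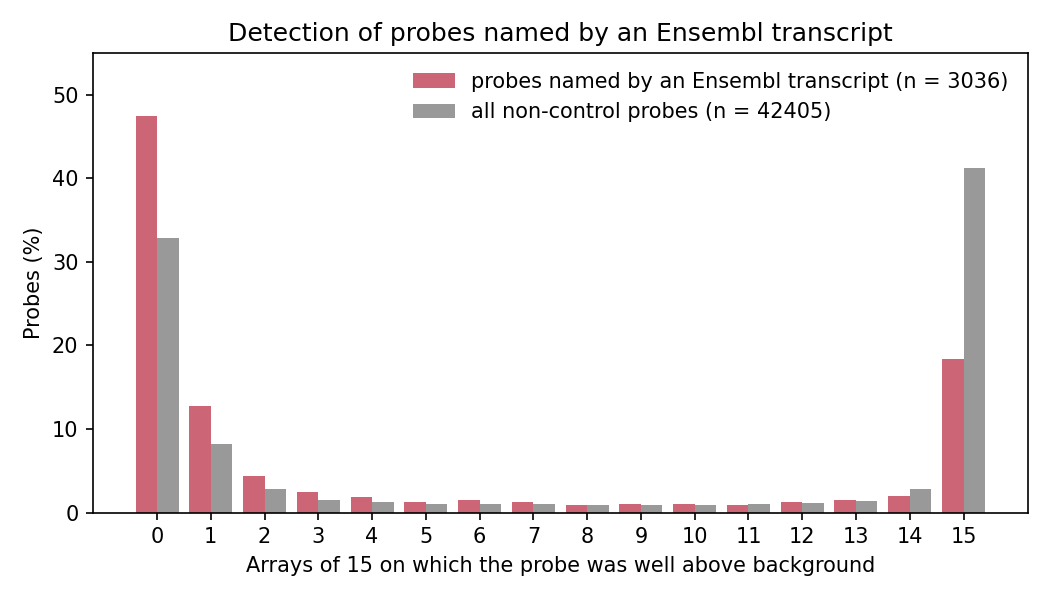
Share of probes in percent (y axis) by the number of the 15 arrays on which the probe was well above background (x axis), for the 3036 probes named by an Ensembl transcript and for all 42405 non-control probes. The Ensembl-named probes pile up at 0 arrays (47.5%), and all probes at 15 arrays (41.2%).

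Detection also varied with the transcript number and with the design series of the probe. Ensembl numbers are issued broadly in order, so a low number tends to be an older record. Probes with transcript numbers below 300000 were tested in 40 of 120 cases (33.3%), those from 300000 up to 400000 in 367 of 1548 (23.7%), those from 400000 up to 450000 in 152 of 743 (20.5%) and those of 450000 and above in 128 of 625 (20.5%). The share well above background on no array ran in the opposite order, from 43.3% and 45.9% to 48.3% and 51.2%. Probe names begin with a design series, and the spread between series was wider. In series A_23, 78 of 178 probes (43.8%) were tested, in A_24 100 of 289 (34.6%), in A_32 29 of 123 (23.6%) and in A_33, which held most of the probes, 480 of 2446 (19.6%). Of the 40, 367, 152 and 128 tested probes in the 4 number ranges, 10%, 10.9%, 13.8% and 11.7% differed between the groups, shares with no order by number.

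In CYGB+, 49 of the 687 tested probes were higher and 31 were lower than in NCE at an adjusted p below 0.05 (limma, Benjamini-Hochberg over all 19605 tested probes). The 80 probes are 11.6% of those tested, and the background over all tested probes was 11.5%. By direction, 7.13% were higher, against a background of 6.15%, and 4.51% were lower, against 5.39%. A change of at least 2-fold was reached by 23 of the 49 and 17 of the 31, or 3.35% and 2.47% of those tested, against backgrounds of 2.68% and 2.46%; together this was 5.82% against 5.14%. These shares lay near the background, as did those at an unadjusted p below 0.05 (206 probes, 30%, against 28.9%) and of probes whose biological replicates did not overlap between groups (221 probes, 32.2%, against 34.7%). In the other name classes, 10% of lincRNA, 13% of NR and 11.8% of NM probes were called. The median log2 difference over the 687 probes was -0.04, with quartiles at -0.35 and 0.31, beside 0.00 over all tested probes; lincRNA probes had a median of 0.07.

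These counts depended on how replicates, slides and arrays entered the fit. Leaving out NCE replicate 1, 2 or 3 gave 26, 13 and 23 higher and 14, 9 and 11 lower probes. Leaving out CYGB+ replicate 3 gave 31 higher and 20 lower. All 80 probes kept their direction in each of these fits. That was fixed in advance, since the replicates of none of the 80 overlapped between groups. The shares called in these 4 fits were 5.82%, 3.2%, 4.95% and 7.42%, against 5.66%, 3.18%, 4.03% and 7.2% of all tested probes. With the biological replicate number as a block, 76 were higher and 67 lower (20.8% of the 687, against 17.6% of all tested probes in that fit), and 79 of the 80 kept their call. With the 4 arrays that stood apart left out, 104 were higher and 81 lower (26.9%, against 26.8% of all tested probes), and 78 of the 80 kept their call; that fit has no NCE array on slide 2, so group and slide cannot be told apart in it. With slide as a block over the single arrays, 8 were higher and 12 lower (2.91%, against 3.57%), and 18 of the 80 kept their call. CYGB+ was on slide 2 only, so the group difference in this fit rests mainly on the 1 NCE array there. Within slide 2 alone, 1 NCE array stood against 3 CYGB+ replicates, so calls in that fit say little and are not counted here. That fit takes its spread from the CYGB+ replicates and assumes that the lone NCE array varies like them. In that setting 77 of the 80 probes had the same direction as over all arrays (48 of 49 higher and 29 of 31 lower), with a median size of 0.83 of the full difference. The single NCE array on slide 2 enters both values and is itself one of the 4 that stood apart. In the 80 probes it lay nearer to the mean of the slide 1 NCE arrays than to the CYGB+ mean in 63 cases. The 80 were called with this array among the NCE values, which favours that count, and no share over all tested probes stands beside it.

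**Figure D3:**
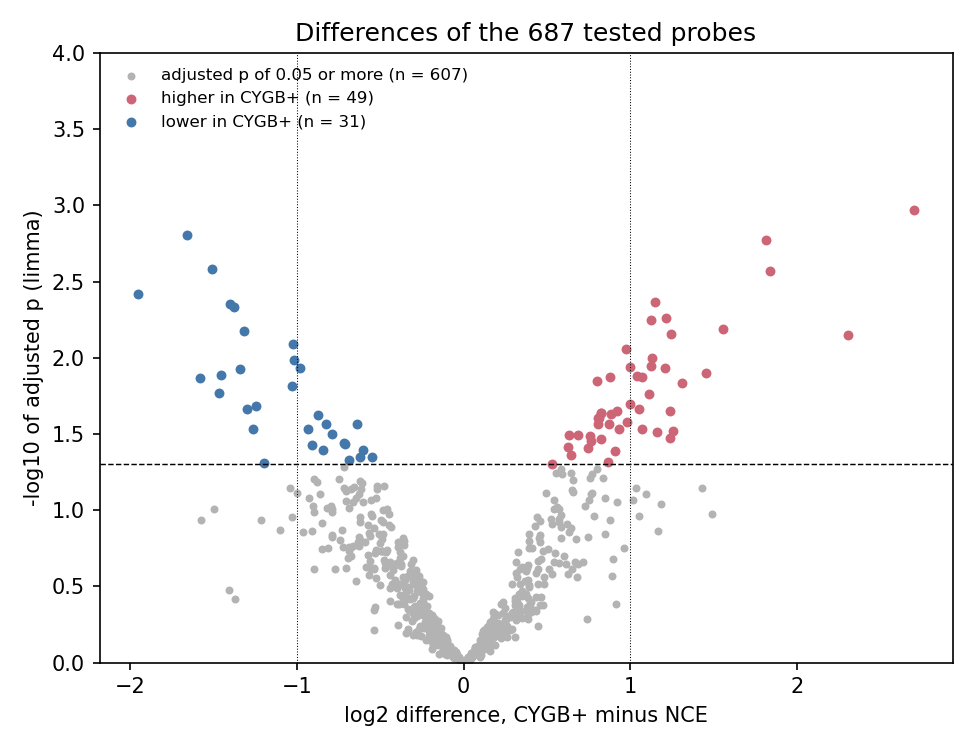
log2 difference between CYGB+ and NCE (x axis) against the -log10 adjusted p (y axis) for the 687 tested probes, 1 point each; the dashed line marks an adjusted p of 0.05 and the dotted lines a 2-fold change. There are 49 points above the line on the right and 31 on the left.

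**Figure D4:**
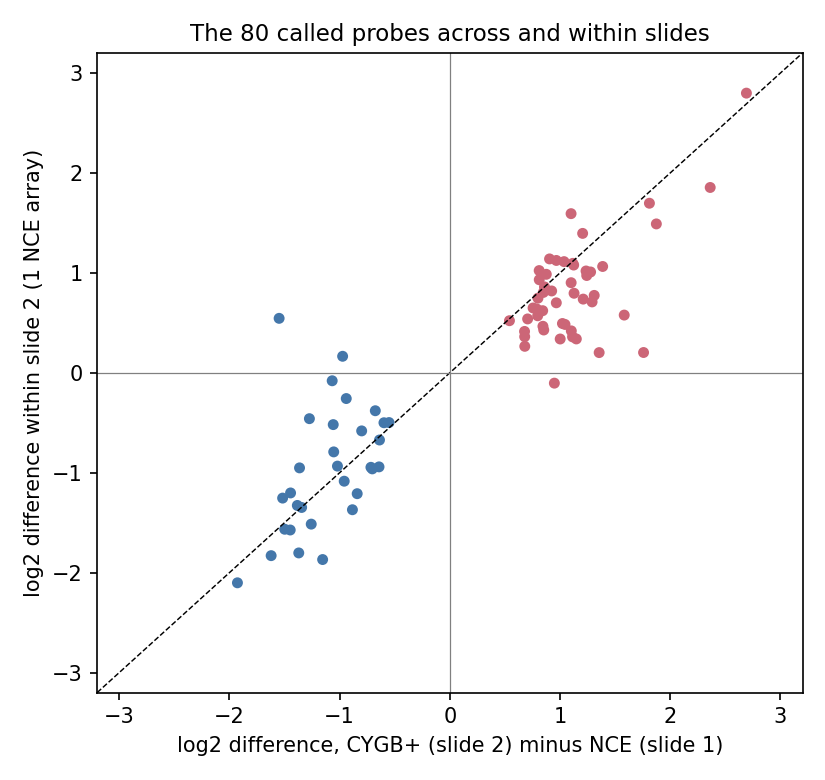
The 80 probes that differed, each plotted by its log2 difference between CYGB+ and the NCE arrays of slide 1 (x axis) and by its difference from the single NCE array on slide 2 (y axis); red points were higher and blue points lower in CYGB+, and the dashed line marks equal values. Both axes share the CYGB+ arrays, and 3 points change sign within slide 2.

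The 2 largest rises among probes seen on every array of both groups were those of ENST00000379121 and ENST00000421004. The probe of ENST00000379121 measured 6.40, 6.45 and 6.001 in NCE replicates 1 to 3 and 8.40, 7.99 and 7.98 in CYGB+ replicates 1 to 3. Every array of CYGB+ (7.96 to 8.73) lay above every array of NCE (5.53 to 6.63). The group means were 6.29 ± 0.25 and 8.12 ± 0.24 (SD, n = 3 biological replicates), a 3.57-fold rise (95% interval 2.61 to 4.89; limma adjusted p = 0.0027). The NCE array on slide 2 read 6.63, the highest of its group, and within slide 2 the log2 difference was 1.49 instead of 1.84.

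The probe of ENST00000421004 measured 7.32, 7.15 and 7.11 in NCE replicates 1 to 3 and 9.25, 8.88 and 8.89 in CYGB+ replicates 1 to 3. Its arrays did not overlap either, running from 6.89 to 7.44 in NCE and from 8.76 to 9.68 in CYGB+. The rise was 3.51-fold (95% interval 2.69 to 4.59; limma adjusted p = 0.0017), with a log2 difference of 1.70 within slide 2 against 1.81 over all arrays. In both probes the highest CYGB+ array was the first array of replicate 1, which stood apart; without the 4 such arrays the differences were 1.83 and 1.67.

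Falls of similar size were measured for ENST00000366353 and ENST00000481710. The probe of ENST00000366353 measured 7.73, 7.65 and 7.93 in NCE replicates 1 to 3 and 6.08, 6.09 and 6.17 in CYGB+ replicates 1 to 3. The lowest NCE array (7.38) was above the highest CYGB+ array (6.44), and the NCE array on slide 2 read 7.94, among the higher NCE values. The level in CYGB+ was 3.15-fold lower (95% interval 2.48 to 4.01; limma adjusted p = 0.0016), and the log2 difference within slide 2 was -1.83 against -1.66 over all arrays.

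The probe of ENST00000481710 measured 8.59, 8.95 and 8.84 in NCE replicates 1 to 3 and 7.32, 7.19 and 7.34 in CYGB+ replicates 1 to 3. NCE arrays ran from 8.44 to 9.29 and CYGB+ arrays from 7.09 to 7.56, again without overlap. This was a 2.85-fold fall (95% interval 2.21 to 3.67; limma adjusted p = 0.0026), with -1.25 within slide 2 against -1.51. Within slide 2 alone, with its 1 NCE array, the limma adjusted p of these 4 probes lay between 0.067 and 0.19, which says little in so small a design. All 4 passed with slide as a block (limma adjusted p between 0.0037 and 0.030), but that fit gives no separate support. CYGB+ was on slide 2 only, so its group difference rests mainly on the same single NCE array. The log2 differences in it were 1.51, 1.75, -1.88 and -1.33 in the order given, near those within slide 2. Their sizes depended on the background correction: with the normexp model, which adds an offset of 50, the log2 differences were 0.94, 1.17, -0.80 and -0.89 in the order given.

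**Figure D5:**
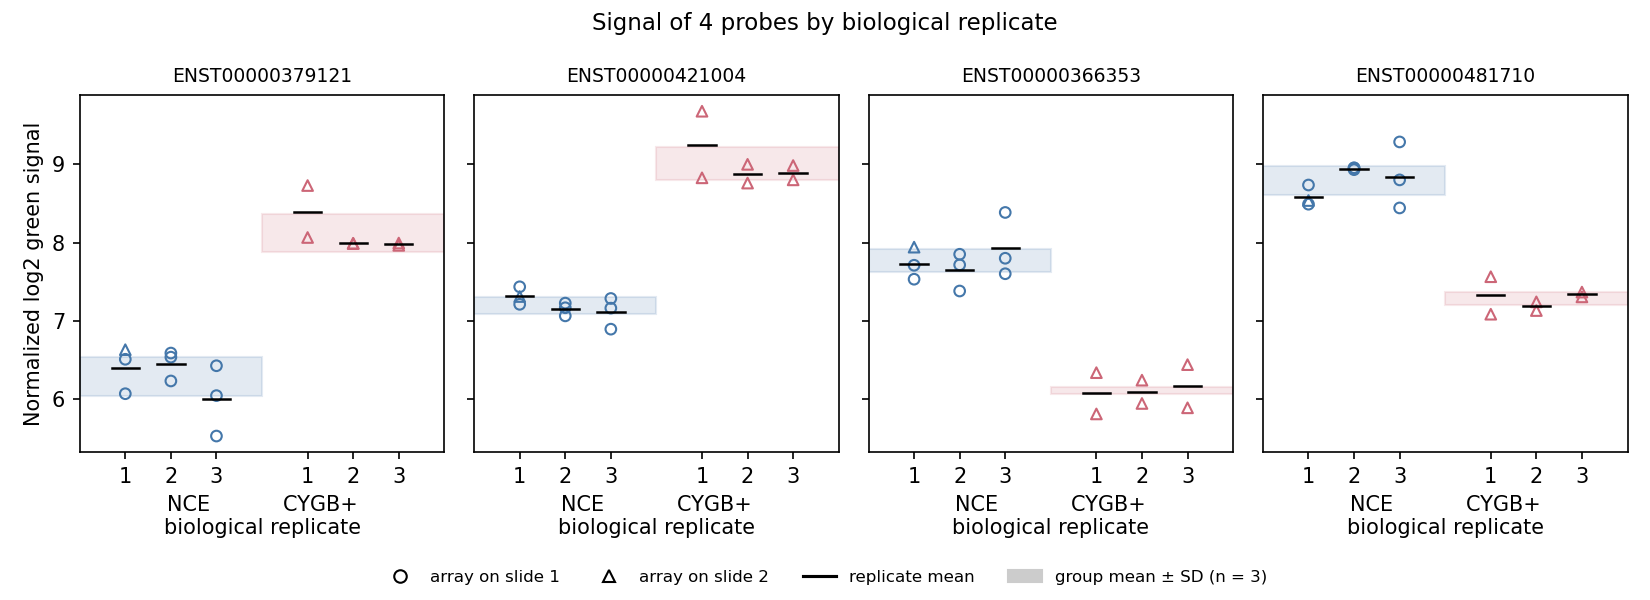
Normalised log2 green signal (y axis) of the 4 probes by biological replicate (x axis), with circles for arrays on slide 1, triangles for arrays on slide 2, black lines for replicate means and shaded bands for the group mean ± SD over 3 replicates. In each panel the arrays of the groups do not overlap, and the triangle in NCE replicate 1 sits with the NCE arrays.

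The next 6 rises among probes seen on every array were 2.18- to 2.48-fold (limma adjusted p between 0.0043 and 0.015). The tightest of them measured 11.30, 11.23 and 11.30 in the NCE replicates and 12.47, 12.33 and 12.47 in the CYGB+ replicates. That gap was far wider than the spread of these replicate means within either group. Single arrays spread more, from 11.10 to 11.68 in NCE and from 12.23 to 12.70 in CYGB+. The log2 difference of this probe was 0.74 within slide 2 against 1.15 over all arrays. All 6 kept their direction within slide 2, and the arrays of the groups did not overlap in any of them. These rises and the falls below were picked for large differences and non-overlapping replicates, which favours both traits. The same CYGB+ arrays also enter the differences within slide 2 and over all arrays. The next 6 falls were 2.04- to 2.76-fold over all arrays (adjusted p between 0.0046 and 0.022). Within slide 2, 5 of these 6 kept their direction and 1, a probe of ENST00000507296 described below, turned to 0.54; the arrays of the groups did not overlap in 4 of the 6. The least even of them fell from 6.47, 6.40 and 6.52 in NCE to 5.66, 4.64 and 4.68 in CYGB+ replicates 1 to 3. The higher value of CYGB+ replicate 1 came from its first array (6.43), which stood apart. Its second array read 4.90, within the 4.08 to 5.28 of the arrays of the other CYGB+ replicates. Over all 49 higher probes the fold ran from 1.45 with a median of 1.99, and over the 31 lower probes from 1.47 with a median of 2.03. Standard errors of the log2 differences lay between 0.14 and 0.33 for both directions.

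Part of the called probes were near the detection limit in the lower group. Among the 559 probes seen on all 15 arrays, 30 were higher and 23 lower, and 246 had a positive difference. With the adjustment redone over probes seen on all 15 arrays, 56 of the 559 were called (10%). Among all probes so seen, 1939 of 17451 were called (11.1%). The 85 probes kept through CYGB+ alone had 19 higher and 0 lower, and the 43 kept through NCE alone had 0 higher and 8 lower. A probe that passed through 1 group only was bound to lean that way, so these 2 sets say nothing about direction. Probes seen on every CYGB+ array and on no NCE array numbered 2, and the reverse did not occur. For them only a lower bound on the fold can be given, computed as the CYGB+ mean over the NCE mean of the lowest signal called well above background on each array, or the probe's own where higher. The first measured 5.45, 5.46 and 5.61 in the CYGB+ replicates and 4.11, 4.30 and 4.48 in NCE, and was at least 1.71-fold higher. The second measured 5.06, 4.59 and 5.32 against 2.23, 2.44 and 2.20, and was at least 1.27-fold higher. The limma adjusted p of 0.0055 and 0.0011 belong to their fitted log2 differences of 1.21 and 2.70, which rest on NCE values not well above background, and not to these bounds.

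Different probes of the same transcript did not always move together. Both members of a pair were tested for 8 transcripts, and in 6 the differences had one sign. The median gap between the probes of a transcript was 0.39 on the log2 scale. The probes of ENST00000429990 differed least, both with a difference of -0.06. The widest gap was 2.48, for ENST00000427872, whose probes had differences of -0.996 and 1.49, neither past the test. ENST00000507296 showed the same kind of split: its first probe went from 11.55, 12.26 and 11.91 in NCE to 10.36, 11.08 and 10.37 in CYGB+ and had a difference of -1.30 (limma adjusted p = 0.022), while its second went from 13.37, 12.81 and 12.81 to 13.53, 13.79 and 13.42, a difference of 0.58 (95% interval 0.11 to 1.06; adjusted p = 0.11). The difference of the first probe turned to 0.54 within slide 2, where the NCE array read 10.06, and its arrays overlapped, from 10.06 to 12.55 in NCE and from 9.53 to 11.21 in CYGB+. These 2 transcripts were picked after their values were seen. In 3 of the 8 transcripts exactly 1 of the probes passed the test, and in 0 did both. The direction of the other probe was the same in the remaining 2 of the 3.

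Printing a probe several times gave a view of spot noise. Of the 3036 probes, 71 were printed 2 times and 3 were printed 10 times on each array, and 32 of the 687 tested probes were printed more than once. The median SD between spots of one array was 0.09 for these 32, beside the scatter of 0.34 between array repeats over all 687. Probes printed 10 times had wider spot scatter. Of these, 2 were at background on all 15 arrays, with mean SDs between spots of 0.33 and 0.44. The third, for ENST00000396049, measured 8.98, 9.30 and 9.18 in NCE and 9.07, 9.27 and 9.20 in CYGB+ replicates 1 to 3. Its mean SD between spots was 0.26. The groups overlapped fully, and the difference was 0.03 (95% interval -0.33 to 0.39; limma adjusted p = 0.93).

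For most of the 687 probes the interval of the difference was wide. The 95% interval of the difference held 0 for 481 probes and had a median width of 1.01 log2 units, the narrowest being 0.64. Both limits lay within 1 log2 unit of 0 for 423 probes and within 0.5 for 67. In 0 of the 687 did both limits lie within 0.25. Even the narrowest interval was wider than the 0.5 units that this margin spans, so the precision fixed that result. No probe can be called unchanged at that margin.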

How the data were processed

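RNA of 3 NCE and 3 CYGB+ biological replicates was hybridised to Agilent SurePrint G3 Human GE arrays (50 ng total RNA per labelling). The deposited scanner files hold intensities per spot from Feature Extraction 10.7.3.1, already background-subtracted and dye-normalised in the processed green signal, with well-above-background flags; red values were not used, since the labels do not say what RNA they hold. The authors' deposited series matrix holds, for 15031 of the probes, natural log values that follow the green background-subtracted signal, centred per probe with a shift per array (column medians between -0.161 and 0.183); it was an alternative over 434 tested members. Its direction and scale were read from the scanner values, and the reason for the shift per array is unknown. Per array, in the order of the labels' accession, those medians were -0.16, -0.04, -0.05, 0.04, 0.18, -0.01, 0.09, -0.02, 0.11 for NCE and -0.01, -0.02, 0.14, -0.05, 0.16, 0.00 for CYGB+.

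Control spots and spots flagged as outliers (0.916%) were left out, log2 signals of one probe were averaged, the 15 arrays were quantile normalised, and array repeats were averaged per biological replicate. Groups were compared in limma 3.58.1 (R 4.3.3), with Benjamini-Hochberg adjustment over 19605 probes. The comparison was tested on simulated data. The mean signal was not used here, so the normexp alternative took the median signal and background (offset 50). The main fit held the group only, so its p-values are unpaired. Replicate numbers were taken as pairing the samples in the replicate-block alternative alone. They were so taken since same-numbered replicates deviated from their group means together (r = 0.24, 0.26 and 0.33 for numbers 1 to 3). A shifted matching was also positive throughout (0.20 for NCE 1 with CYGB+ 2, 0.27 for NCE 2 with CYGB+ 3 and 0.16 for NCE 3 with CYGB+ 1), so the arrays do not single out the same-numbered pairing. Precision is limited by 3 replicates per group; p-values measure the spread between RNA extractions of one cell line and, for CYGB+, 1 clone. Markers and CYGB were named through RefSeq accessions.

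The probes and marker lists were chosen with earlier results of these data known. Named probes are the 2 with the largest rise and the 2 with the largest fall among those past the test, seen on every array and with non-overlapping replicates, taken from a rule covering 8 in each direction, those seen in 1 group only, and the 4 narrowest intervals within 0.25 of 0 (of which there were 0).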

Additional observations from a re-analysis of the deposited data

Results flagged for a closer look

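Among 10 sets of arrays tested for an array far from the others (the 4 named probes and CYGB, each in both groups, NCE with 9 and CYGB+ with 6 arrays), 2 were flagged; chance flags about 1 in 20. For ENST00000379121, the first array of CYGB+ replicate 1 read 8.73 against 8.06 for the next highest CYGB+ array, a gap of 0.869 of the group's range against a limit of 0.625. For ENST00000421004, the same array read 9.68 against 8.999, a gap of 0.739 of the range. Without CYGB+ replicate 1 the log2 differences were 1.70 and 1.69, and both passed the test (limma adjusted p = 0.0062 and 0.0040). This array is one of the 4 that stood apart from their own group over all probes; the cause was not tested.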

How the results depend on the processing

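Over all 19 alternatives, the 4 named probes kept their direction wherever they were measured, and only within slide 2 alone did they miss the threshold (2 of them are not in the series matrix). Of the 80 called probes, 77 kept their direction with slide as a block and within slide 2, and every one measured kept it in the other 17 settings. Where those settings left out a replicate or changed only the test or the filter, this was fixed in advance, since the replicates of none of the 80 overlapped. The slide block and slide 2 alone both rest mainly on the 1 NCE array of slide 2. The counts moved more. Higher and lower probes numbered 76 and 67 with the replicate block, 8 and 12 with the slide block, 1 and 0 within slide 2, 13 and 12 by the methods' t-test after Benjamini-Hochberg (145 at an unadjusted p below 0.05), 104 and 81 without the 4 arrays that stood apart, an alternative chosen after seeing the data, and 70 and 60 over single arrays with the biological replicate as a random block. Higher probes numbered 19 in the series matrix, which covers 434 of the 687. They numbered 32 among probes seen on all 15 arrays, with the adjustment redone over such probes. With no filter they numbered 27, where 42405 probes share the adjustment. In most settings the share of all tested probes called moved the same way. It was 3.57% with the slide block and 26.8% without the arrays that stood apart, against 2.91% and 26.9% of the Ensembl-named probes. By the t-test it was 4.11% against 3.64%, and over single arrays 23.5% against 18.9%. In the series matrix it was 9.72% against 9.22%, and with no filter 2.82% against 1.68%. With normexp the shares moved apart, from 11.5% to 12% of all tested probes and from 11.6% to 8.01% of the Ensembl-named probes. Without 1 biological replicate the counts ran from 13 to 44 higher, from 9 to 32 lower and from 21 to 45 changed at least 2-fold, against 49, 31 and 40. At least 2-fold changes numbered 5 with normexp, whose offset shrinks dim differences, 17 with the slide block and 15 by the methods' t-test. They numbered 20 of 434 in the series matrix and 20 of 559 on all 15 arrays. No 2-fold share over all tested probes stands beside these counts, so they say nothing particular to the Ensembl-named probes. The median difference over the probes moved beyond its spread between CYGB+ replicates (SD 0.029) only in the series matrix, to -0.10. The CYGB difference of -0.05 turned to 0.11 with 75th percentile scaling, to 0.0467 in the series matrix and, without 1 biological replicate, ranged from -0.30 to 0.23, passing no test. Pairing by replicate number changed no call of a named probe. The cause of these moves was not tested. Transcripts whose probes share a direction numbered 4 to 6 in every setting.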
